A study of Homo sapiens with 6 samples.

Results

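The RUNX and core binding factor genes were followed through 4 lists of histone peaks from cells labelled OCI-AML3. The members were RUNX1, RUNX2, RUNX3, CBFB and RUNX1T1, taken as a protein family, its shared partner and a known fusion partner. The rule uses no measured value, although earlier results of these data were known when it was set. They were 5 of 20163 protein-coding genes annotated on GRCh37, and all 5 were also among 19662 on GRCh38. For each member, every peak in the gene record with 20 kb on either side, and every peak within 1 kb of an annotated transcript start, was read from each list. OCI-AML3, a human cell line derived from acute myeloid leukemia (AML), has a mutant NPM1 (mtNPM1) allele, and per the study it also carries DNMT3A and NRAS mutations. In a CRISPR-Cas9 design, cells received sgNeg, a control guide RNA, or sgNpm1A, which is directed against mtNPM1, and both groups therefore share the background of the line and the transfection. The labels give 3 days of culture, and the text of the study a longer time. Each guide was measured in 1 library for acetylation of lysine 27 on histone H3 (H3K27Ac, a mark of active enhancers and promoters) and in 1 library for trimethylation of lysine 4 (H3K4me3, a mark of active promoters). With 1 library per group there is no replicate error, no test between guides was possible, and each difference describes a pair of libraries. In bulk chromatin, a mark lost in some of the cells and a mark weaker in all of them cannot be told apart.

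RUNX1, RUNX2 and RUNX3 encode transcription factors that share the runt DNA-binding domain, and each forms a dimer with CBFB (core binding factor beta), which does not bind DNA itself but strengthens binding by the RUNX partner. RUNX1 is required for definitive hematopoiesis, RUNX2 for bone formation and RUNX3 for the development of T cell lineages and of some sensory neurons. RUNX1T1 (also called ETO) is a corepressor, best known from its fusion to RUNX1 in AML with a t(8;21) translocation. CBFB is fused to a myosin gene in AML with inversion of chromosome 16. Each RUNX gene has a distal promoter, P1, and a proximal promoter, P2, which start transcripts that encode different amino-terminal ends. In the annotation used here P1 lay 160.7 kb upstream of P2 in RUNX1, 93.9 kb in RUNX2 and 34.8 kb in RUNX3 on GRCh37.

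Fold enrichment, as given by the authors' peak caller, is scaled within each list. A peak is therefore described by its percentile of fold enrichment within its own list, where 99 means that 1% of the peaks of that list are stronger, and by its rank from the strongest. The lists held 327715 (sgNeg) and 317059 (sgNpm1A) H3K27Ac peaks, and 353628 (sgNeg) and 106641 (sgNpm1A) H3K4me3 peaks. The H3K27Ac coordinates are on GRCh37 and the H3K4me3 coordinates are on GRCh38, so that positions were compared only within a mark. The labels name OCI-AML3 for all 4 libraries, but the H3K27Ac lists were deposited with the tag OCI2 and the H3K4me3 lists with OCI3. The study also used OCI-AML2, a line into which it introduced mutant NPM1. Whether the H3K27Ac lists come from OCI-AML3 was not settled, and each H3K27Ac value below has this limit. Read totals are not part of the lists. From the steps between H3K4me3 fold values, the mean cover was 3.81 fragments per base for sgNeg and 2.93 for sgNpm1A. Where the narrowest peak of each list, 110 bp and 245 bp, equals the fragment length, the sgNpm1A H3K4me3 library had 0.346 times the fragments of sgNeg, a difference that moves with every H3K4me3 comparison below and whose part in it was not tested. The label of a myeloid line was checked in sgNeg H3K27Ac. Of 10 myeloid marker genes, 9 had a promoter peak with a median percentile of 95.4 over the list, and KIT had none. Over all coding genes 79.1% had such a peak, with a median of 92.4. Of 10 markers of other cell types, all 10 had some promoter peak, but with a median percentile of 50.1, and 0 of them reached percentile 95 where 5 of the myeloid genes did. The sgNpm1A H3K27Ac list did not set the marker lists apart. There 7 myeloid genes had a peak, with a median percentile of 45.4 and 0 at or above 95, and 7 markers of other cell types had one, with a median of 44.5 and 1 at or above 95. The share of all coding genes was 57%, with a median of 23.04. In sgNeg H3K4me3, 6 myeloid genes and 5 markers of other cell types had a peak, with medians of 59.7 and 1.18. There 68.3% of all coding genes had one, with a median of 87.3. In sgNpm1A H3K4me3 the counts were 1 and 3, against 9.49% of all coding genes.

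The promoter windows of the RUNX genes are shown because the marks at P1 and P2 differed, though not in the same direction in every gene and list. Symbols matched 5 windows of 3 member genes in the RefSeq promoter table of GRCh38.p14, each running from 250 bases before to 50 bases after the start and printed 5′ to 3′ on the strand of the gene. Capitals mark the RUNX core words TGTGGT and TGCGGT, searched on both strands (ACCACA and ACCGCA when read from the other strand). TGTGGT was present in 13.1% of all 35116 promoter windows of this length and TGCGGT in 7.29%. RUNX1 P2 lies at chr21:34888650-34888949 (minus strand), RUNX2 P1 at chr6:45328080-45328379 and RUNX2 P2 at chr6:45422025-45422324 (both plus), and RUNX3 P1 at chr1:24964961-24965260 and RUNX3 P2 at chr1:24930227-24930526 (both minus).
RUNX1 P2: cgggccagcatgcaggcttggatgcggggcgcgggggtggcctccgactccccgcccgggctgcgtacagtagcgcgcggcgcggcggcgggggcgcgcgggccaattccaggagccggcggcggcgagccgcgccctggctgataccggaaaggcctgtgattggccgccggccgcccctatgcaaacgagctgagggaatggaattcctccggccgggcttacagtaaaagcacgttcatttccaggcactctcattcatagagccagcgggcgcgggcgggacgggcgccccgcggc
RUNX2 P1: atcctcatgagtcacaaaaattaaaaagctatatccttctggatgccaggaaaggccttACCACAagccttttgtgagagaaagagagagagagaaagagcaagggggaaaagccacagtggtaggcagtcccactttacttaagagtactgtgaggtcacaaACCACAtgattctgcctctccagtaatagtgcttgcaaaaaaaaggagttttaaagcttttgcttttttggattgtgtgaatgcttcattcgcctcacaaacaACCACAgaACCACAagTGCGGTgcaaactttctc
RUNX2 P2: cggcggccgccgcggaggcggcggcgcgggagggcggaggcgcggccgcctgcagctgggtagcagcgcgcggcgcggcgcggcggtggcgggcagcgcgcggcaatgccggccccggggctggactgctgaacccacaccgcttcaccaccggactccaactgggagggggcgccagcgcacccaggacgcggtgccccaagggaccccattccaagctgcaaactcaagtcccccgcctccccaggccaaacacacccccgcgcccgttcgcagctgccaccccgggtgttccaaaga
RUNX3 P1: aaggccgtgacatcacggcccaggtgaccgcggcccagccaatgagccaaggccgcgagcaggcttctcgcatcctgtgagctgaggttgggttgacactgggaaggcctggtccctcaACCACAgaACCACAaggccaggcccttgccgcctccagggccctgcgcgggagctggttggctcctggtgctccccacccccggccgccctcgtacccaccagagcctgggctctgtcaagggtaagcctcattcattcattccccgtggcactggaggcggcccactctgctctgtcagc
RUNX3 P2: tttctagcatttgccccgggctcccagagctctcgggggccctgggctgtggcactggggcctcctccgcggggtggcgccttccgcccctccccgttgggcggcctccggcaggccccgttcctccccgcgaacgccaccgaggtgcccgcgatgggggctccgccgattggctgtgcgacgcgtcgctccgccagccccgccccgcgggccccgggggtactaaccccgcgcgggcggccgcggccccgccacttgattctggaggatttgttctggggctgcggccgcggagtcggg

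The 3 P2 windows were alike in composition. They held 72%, 76% and 76% G and C for RUNX1, RUNX2 and RUNX3, with 40, 39 and 38 CpG dinucleotides, against a median of 58.7% and 14 over all promoter windows. RUNX2 P1 stood at the other end, with 42.7% G and C and 2 CpG dinucleotides, and RUNX3 P1 lay between them, with 66.3% and 15. The RUNX words were in the P1 windows. RUNX2 P1 held TGTGGT 4 times and TGCGGT 1 time, of which 3 lay within the 50 bases after the start, and RUNX3 P1 held TGTGGT 2 times, from bases 120 and 128 of the window. The 3 P2 windows held no match. These are matches of letters and not measured binding sites. The promoters of RUNX1 P1, CBFB and RUNX1T1 are described by their peaks alone.

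In control cells H3K27Ac marked P2 of RUNX1 and RUNX2, P1 of RUNX3, and the CBFB promoter most strongly. At RUNX1 P2 (chromosome 21, gene ENSG00000159216, minus strand) the sgNeg peak ran from 36258165 to 36263746. It was 5582 bp wide, with a fold enrichment of 7.42, which was rank 919 of the list and percentile 99.72. The sgNpm1A list had no peak within 1 kb of this start, and its nearest peak edge was 14469 bp away. At RUNX1 P1 the sgNeg peak spanned 36417711 to 36421445, at percentile 97.3 and a fold enrichment of 4.42. In sgNpm1A a 369 bp peak with a fold enrichment of 2.99 and percentile 56.3 lay 977 bp from the closest P1 start, so that both RUNX1 promoters were weaker or unmarked in the sgNpm1A list.

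RUNX2 showed the widest marked promoter of the family. Its sgNeg P2 peak (chromosome 6, ENSG00000124813, plus strand) ran from 45386438 to 45408232, a domain of 21.8 kb that was the 81st widest of the list, with a fold enrichment of 7.56, rank 815 and percentile 99.75. A start of another gene, ENSG00000271857, lay in this domain or within 1 kb of it, so that the domain cannot be given to RUNX2 alone. In sgNpm1A no peak lay within 1 kb of P2 and the nearest was 11113 bp away. Inside the span of the sgNeg domain the sgNpm1A list held a single peak, from 45407054 to 45407827, at percentile 8.29. RUNX2 P1 had no H3K27Ac peak in either list, with the nearest peaks 15632 bp (sgNeg) and 21712 bp (sgNpm1A) away.

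RUNX3 differed in its leading promoter. At P1 (chromosome 1, ENSG00000020633, minus strand) the sgNeg peak ran from 25289142 to 25294202, 5061 bp wide, with a fold enrichment of 5.70, rank 3410 and percentile 98.96. In sgNpm1A the strongest peak there was 160 bp wide, at a fold enrichment of 2.66 and percentile 6.43. At RUNX3 P2 the sgNeg peak was 1047 bp wide with a fold enrichment of 3.11 and percentile 82.2, and sgNpm1A had none. Thus P2 led in RUNX1 and RUNX2, and P1 led in RUNX3, within the sgNeg H3K27Ac list.

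CBFB, the shared partner, had the strongest promoter peak of the 5 genes. In sgNeg it ran from 67062263 to 67064461 (chromosome 16, ENSG00000067955, plus strand), 2199 bp wide, with a fold enrichment of 9.85, rank 154 and percentile 99.95. Of all coding genes, 99.5% had a weaker leading promoter peak or none. In sgNpm1A the nearest peak was 1685 bp from a CBFB start. RUNX1T1 (chromosome 8, ENSG00000079102, minus strand) was weakly acetylated at its main start. There the strongest peak had percentile 16.4 in sgNeg (157 bp, fold enrichment 2.59) and 38.3 in sgNpm1A (346 bp, fold enrichment 2.86). Over its 41 annotated starts the strongest peak reached percentile 87.5 (sgNeg) and 96.9 (sgNpm1A), at a start inside the gene, and RUNX1T1 was the only member whose leading promoter peak ranked higher in sgNpm1A.

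**Figure D1:**
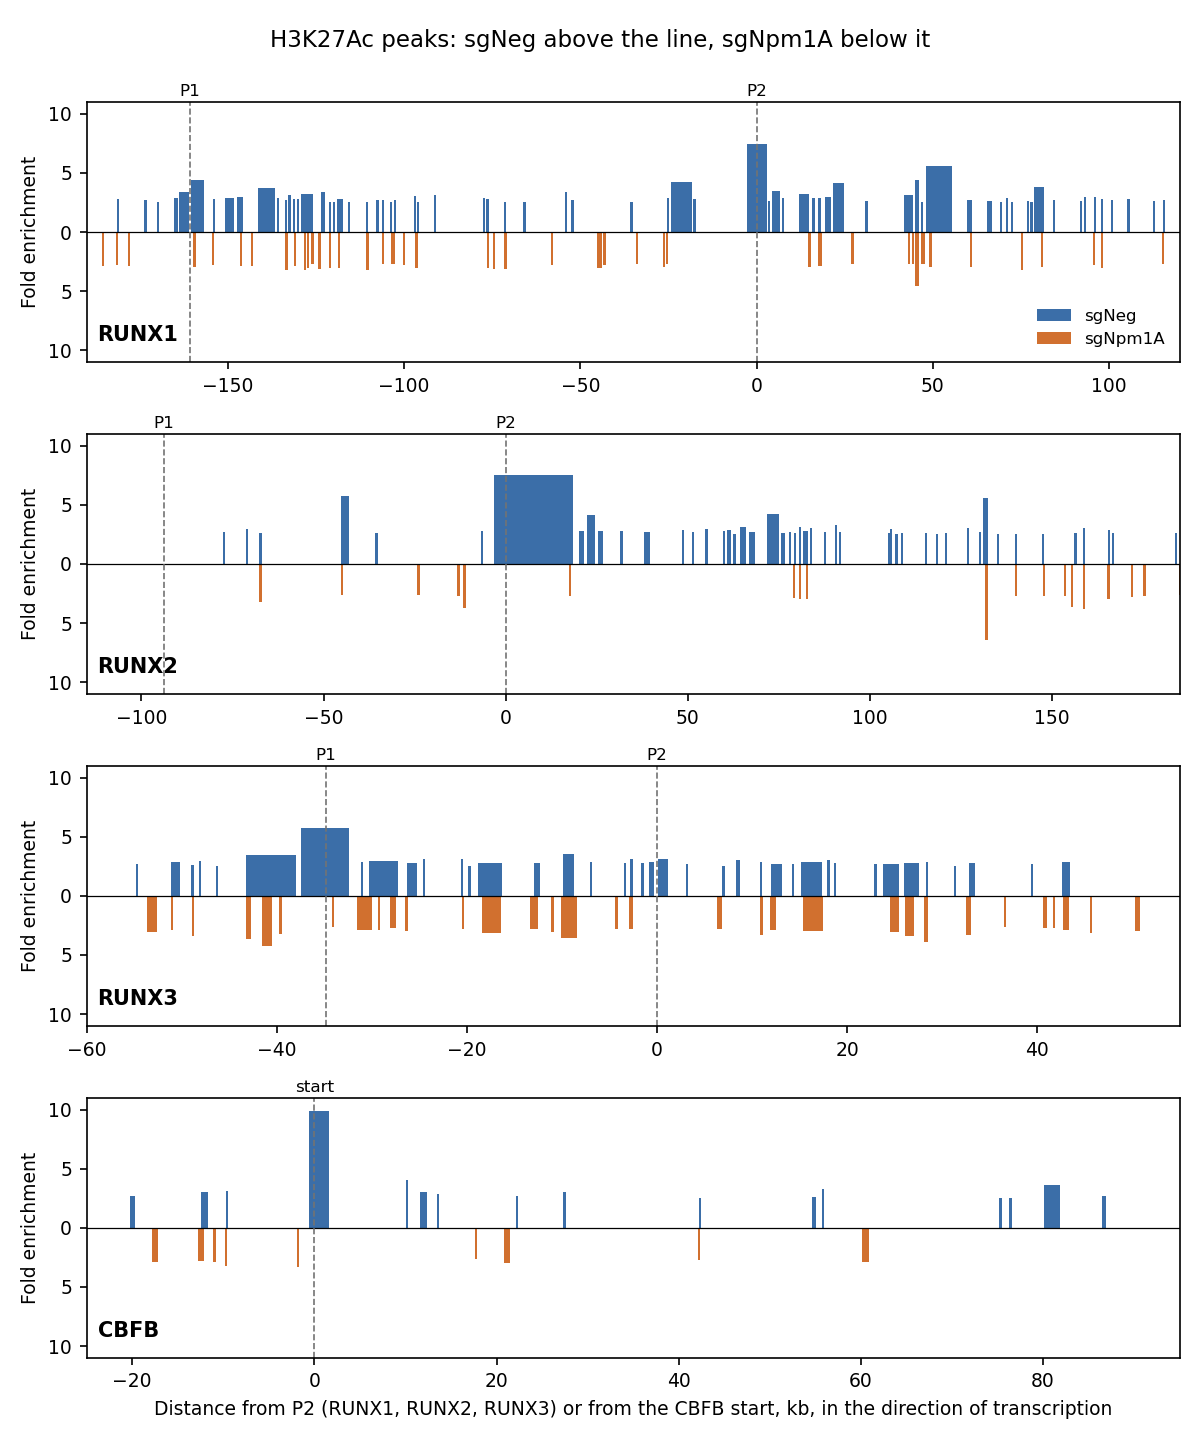
H3K27Ac peaks of RUNX1, RUNX2, RUNX3 and CBFB. The horizontal axis is the distance from P2 (for CBFB, from its start) in kb in the direction of transcription, each bar is 1 peak with its width (the narrowest are drawn wider so as to be visible), and its height is the fold enrichment, upward for sgNeg and downward for sgNpm1A. The sgNeg blocks at P2 of RUNX1 and RUNX2, P1 of RUNX3 and the start of CBFB reach a fold enrichment of 5.70 to 9.85, while the highest sgNpm1A bar, 6.42, stands 132 kb past RUNX2 P2.

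H3K4me3 in control cells marked P2 and not P1 in RUNX1 and RUNX2. At RUNX1 P2 the leading sgNeg peak spanned 34885238 to 34887925 on GRCh38, 2688 bp wide (the 213th widest of the list), with a fold enrichment of 10.2, rank 1618 and percentile 99.54. A further peak from 34888987 to 34889817, on the other side of the start, was at percentile 97.3. At RUNX1 P1 there was none within 19314 bp. At RUNX2 P2 the peak ran from 45422569 to 45424587, 2019 bp wide, with a fold enrichment of 9.36, rank 2373 and percentile 99.33, and a peak from 45421041 to 45422011 upstream of the start was at percentile 97.6. A start of another gene, LOC124901324, lay within 1 kb of both peaks, so that they cannot be given to RUNX2 alone. RUNX2 P1 had no H3K4me3 peak within 22173 bp. P2 of both genes was thus flanked by strong peaks on both sides. Strong sgNeg H3K4me3 peaks also lay away from the promoters. In the RUNX2 region a peak from 45553804 to 45554369, 132 kb past P2, had a fold enrichment of 8.11 and percentile 98.8. A H3K27Ac site described below, rich in runs of alternating T and G, also lay 132 kb past P2. Whether they are the same site was not tested, since no coordinate was converted between builds. Inside the gene records and away from promoters, the strongest peak was at percentile 98.1 in RUNX1 and 95.6 in RUNX3.

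RUNX3 carried H3K4me3 at both promoters, each weaker than P2 of its relatives. The P1 peak spanned 24963257 to 24964584, at percentile 94.9 and a fold enrichment of 4.99. The P2 peak spanned 24929053 to 24929506, at percentile 95.6 and a fold enrichment of 5.20, and the start of the antisense gene RUNX3-AS1 lay within 1 kb of it, so that the P2 peak cannot be given to RUNX3 alone. The CBFB peak spanned 67029240 to 67030633 and reached percentile 99.39 at a fold enrichment of 9.57. RUNX1T1 had a narrow peak of 280 bp, from 92102852 to 92103131, at percentile 96.7 and a fold enrichment of 5.62. None of the 4 printed windows with a sgNeg H3K4me3 peak near them had a base under that peak, since the peaks lay beside the starts, which also held for 52.7% of the 18876 windows with a peak in them or within 750 bp.

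In sgNpm1A none of the 8 member promoters had a H3K4me3 peak. The RUNX2 and CBFB regions held no sgNpm1A H3K4me3 peak at all, RUNX1 held 6, RUNX3 held 13 and RUNX1T1 held 13, with the strongest of these at percentiles 53.1, 86.1 and 91.0.

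**Figure D2:**
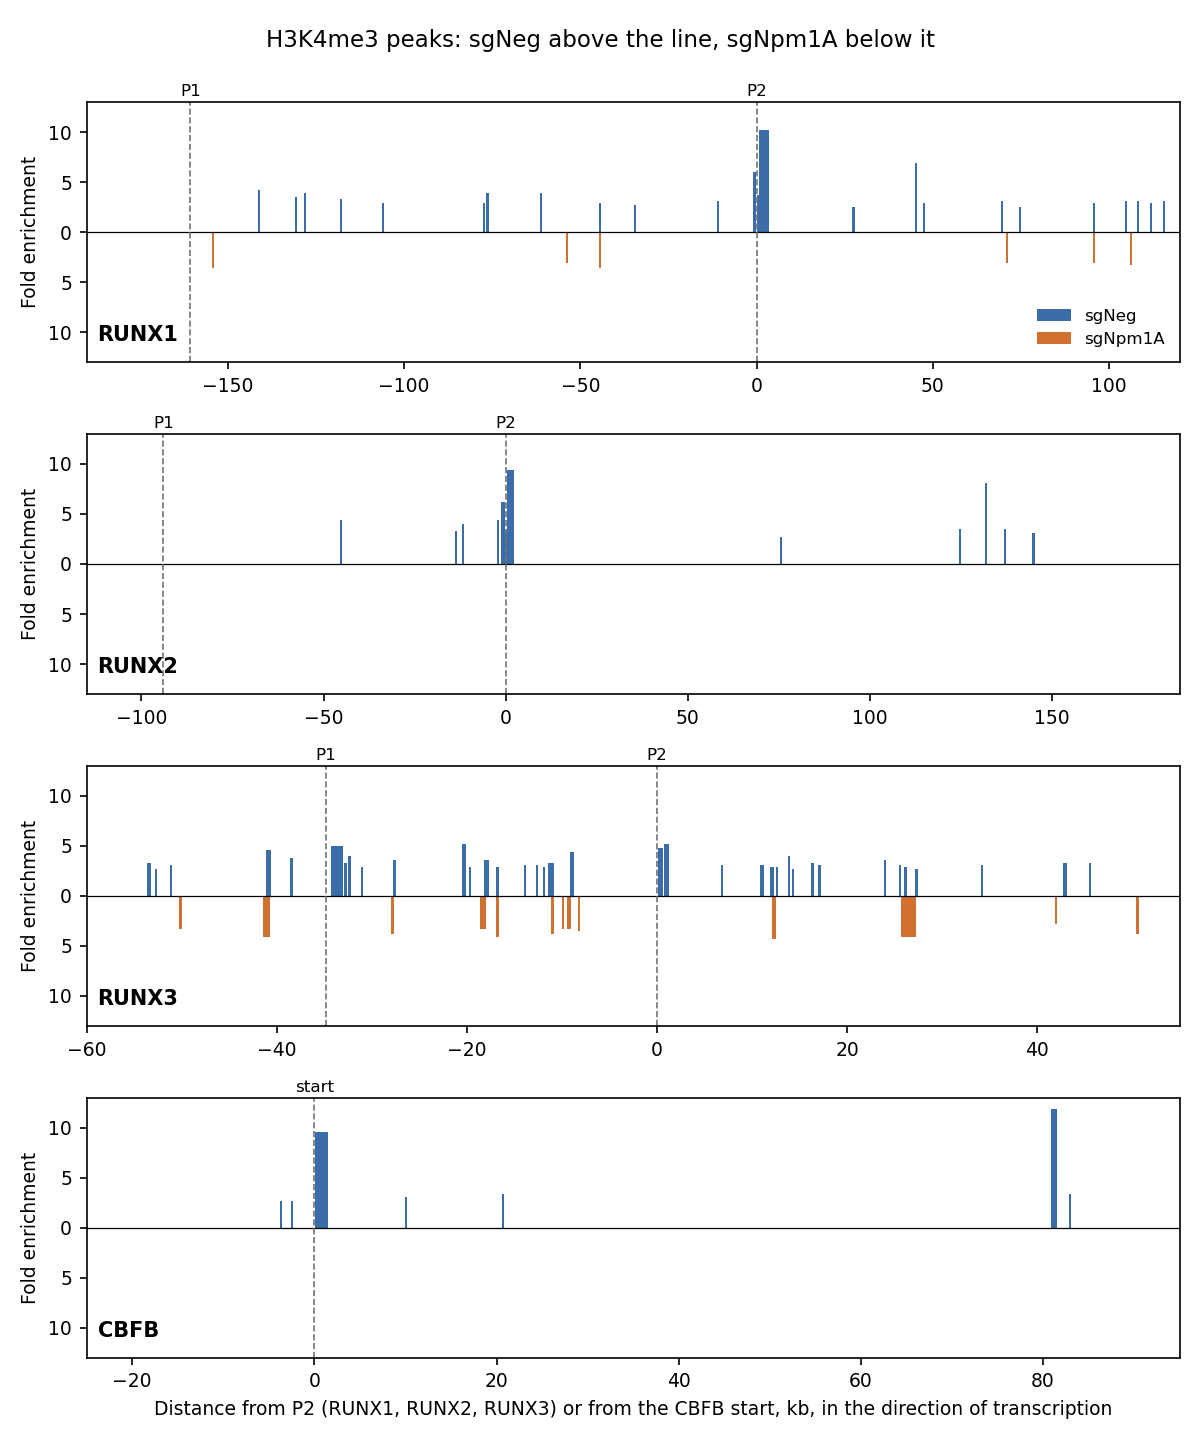
H3K4me3 peaks of the same 4 genes, with the axes and bars as in the map of H3K27Ac peaks. sgNeg bars stand beside P2 of RUNX1 and RUNX2, at both RUNX3 promoters and at the CBFB start, P1 of RUNX1 and RUNX2 is empty, and the sgNpm1A side is empty for RUNX2 and CBFB. Other sgNeg bars lie away from promoters, the highest of RUNX2 at a fold enrichment of 8.11, 132 kb past P2. The high sgNeg bar 81.2 kb past the CBFB start lies at the start of PHAF1, the downstream neighbor.

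Counted over the 8 promoters (P1 and P2 of each RUNX gene, and the main starts of CBFB and RUNX1T1), H3K27Ac peaks lay at 7 in sgNeg and 3 in sgNpm1A, and H3K4me3 peaks at 6 and 0. Counted by gene over all annotated starts, 5 of 5 members had a H3K27Ac promoter peak in sgNeg, where 79.1% of all coding genes had one, and 3 of 5 in sgNpm1A, where the share of all genes was 57%. For H3K4me3 the counts were 5 of 5 against 68.3% of all genes in sgNeg, and 0 of 5 against 9.49% in sgNpm1A. With 5 genes, these counts do not set the members apart from the general shares. Their sgNeg peaks were high in their lists. The median percentile of the leading promoter peak was 99.72 over the members and 92.4 over all genes for H3K27Ac, and 99.33 against 87.3 for H3K4me3. In sgNpm1A H3K27Ac the medians were 6.43 for the members and 23.04 for all genes, and for H3K4me3 both were 0. The percentile was lower in sgNpm1A than in sgNeg for 4 of 5 members in H3K27Ac, against 65.6% of all genes, and for 5 of 5 in H3K4me3, against 65.7%.

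**Figure D3:**
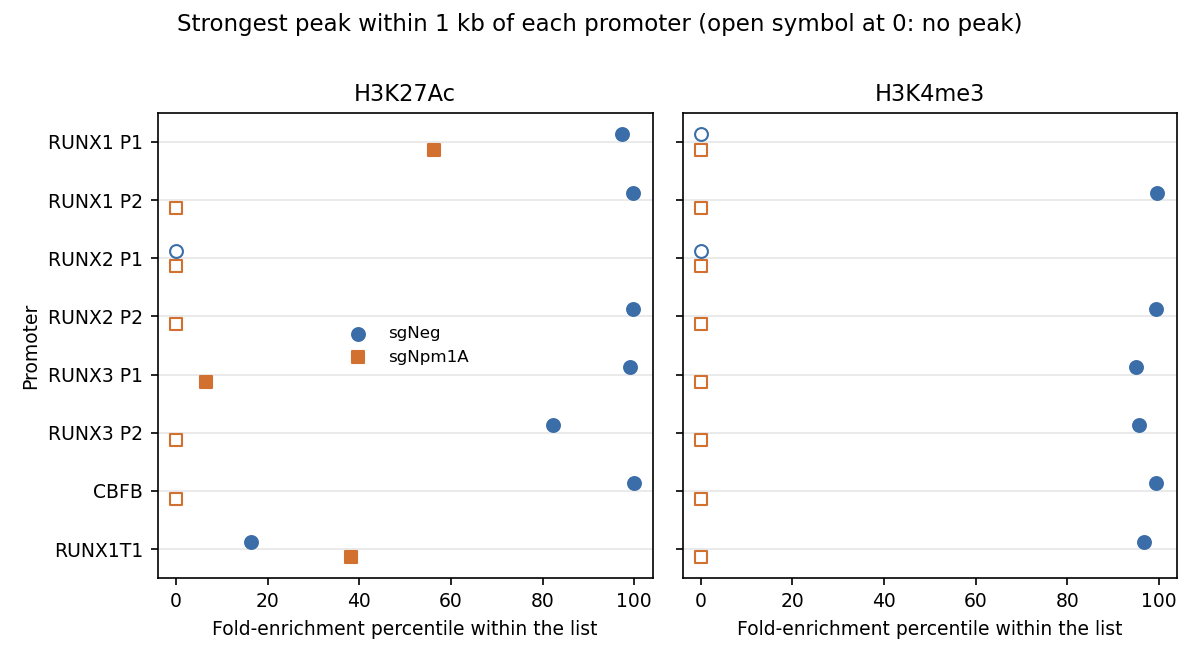
Percentile of the strongest peak within 1 kb of each of the 8 promoters in its own list, for H3K27Ac (left) and H3K4me3 (right). Circles are sgNeg and squares sgNpm1A, and an open symbol at 0 stands for no peak. Most sgNeg circles are above 80, the sgNpm1A H3K27Ac squares reach at most 56.3, and all 8 sgNpm1A H3K4me3 squares are at 0.

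Beyond the promoters, the RUNX1 region held the most H3K27Ac peaks, and it was also the longest. Its GRCh37 region of 1257 kb, long because the record includes starts far upstream of P1, held 246 sgNeg and 155 sgNpm1A H3K27Ac peaks. Of the sgNeg peaks, 176 lay at least partly in the record upstream of P1. From P1 to P2 and from P2 to the end of the record, sgNeg had 35 and 28 peaks in RUNX1. In RUNX2 these counts were 7 and 58. The stretch of RUNX1 between P1 and P2, known to hold hematopoietic enhancer sequence, was covered over 22.1% of its length in sgNeg and 8.20% in sgNpm1A. From P2 to the end of the gene the shares were 36.3% and 8.29%. Wide sgNeg peaks without an overlapping sgNpm1A peak lay in intron 2, at 36397711 to 36402261 (21.7 kb past P1, 4551 bp, percentile 95.2) and at 36279366 to 36285180 (139 kb past P1, 5815 bp, percentile 97.0), and in intron 5, at 36236162 to 36239380 (23.2 kb past P2, percentile 96.7), introns being counted in the canonical P1 transcript. A 7317 bp peak from 36205707 to 36213023, 51.6 kb past P2 and at percentile 98.8, overlapped a sgNpm1A peak of 890 bp at percentile 56.3. Far upstream of P1, a sgNeg peak from 37108801 to 37112623 reached percentile 99.51 and had no sgNpm1A counterpart. These are sgNeg peaks that were weaker or absent in sgNpm1A, and others ran the other way. Of the 84 RUNX1 peaks of sgNeg that a sgNpm1A peak overlapped, 43 had the lower percentile in sgNeg and 41 the higher. The same split was not taken over all overlapped peaks, so that nothing particular to RUNX1 is read from it. At or above percentile 95 the RUNX1 region held 13 sgNeg and 7 sgNpm1A peaks, which were 5.28% and 4.52% of its peaks. These shares are close to those that the cut-off leaves in a whole list by definition, so that they do not set RUNX1 apart.

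In RUNX2 the sgNeg list held 71 H3K27Ac peaks and the sgNpm1A list 31. The acetylation was denser past P2 than between the promoters. From P1 to P2, 7.51% of the length was under sgNeg peaks, and from P2 to the end of the record 21.9%, against 2.15% and 3.40% in sgNpm1A. The strongest sgNeg peak of the intron between the promoters, from 45344643 to 45346782 at percentile 98.97, lay at a start of SUPT3H, a neighboring gene that overlaps RUNX2, and its sgNpm1A counterpart was at percentile 6.43. In introns 5 and 6, sgNeg peaks at 45412008 to 45414301 (percentile 96.6) and 45461427 to 45464841 (percentile 97.0) had no sgNpm1A counterpart. The other way, a sgNpm1A peak in intron 2, from 45378272 to 45378660 at percentile 95.5, had no sgNeg counterpart. Of the 18 RUNX2 peaks of sgNeg that a sgNpm1A peak overlapped, 10 had the lower percentile in sgNeg and 8 the higher. Here too the split over all overlapped peaks was not taken.

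RUNX3 was the most densely covered member. Of its 39 sgNeg H3K27Ac peaks 21, or 53.8%, were overlapped by a sgNpm1A peak, against 34.1% for RUNX1, 25.4% for RUNX2, 18.8% for CBFB and 64.4% for RUNX1T1, where the share over all sgNeg H3K27Ac peaks was 50.7%. Of its 32 sgNpm1A peaks 24 were overlapped by a sgNeg peak, against 51.4% of all sgNpm1A peaks. The strongest intronic sgNeg peak, from 25265447 to 25266622 in intron 1 at percentile 93.0, matched a sgNpm1A peak from 25265217 to 25266913 at percentile 91.9. Upstream of P1, a wide sgNeg peak from 25294697 to 25300023, near the start of the noncoding gene ENSG00000261025, was at percentile 92.9, and within it a sgNpm1A peak from 25297278 to 25298366 was at 98.8. H3K4me3 also lay upstream of P1 in both guides, from 24970857 to 24971405 in sgNeg (percentile 92.4) and from 24970988 to 24971684 in sgNpm1A (78.7). In CBFB the sgNeg H3K27Ac list held 16 peaks and sgNpm1A 9, and apart from the promoter only 1 sgNeg peak, 170 bp wide in intron 3 at 67072989 to 67073158, reached percentile 95.

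Over whole regions, H3K27Ac peaks covered less of RUNX1, RUNX2, RUNX3 and CBFB in sgNpm1A and more of RUNX1T1. The share under peaks was 15.2% in sgNeg and 5.75% in sgNpm1A for RUNX1, 16.7% and 3.08% for RUNX2, and 32.6% and 19.3% for RUNX3. It was 7.31% and 3.51% for CBFB and 10.1% and 15.7% for RUNX1T1. Over all coding genes the medians were 9.81% and 6.73%. Coverage was lower in sgNpm1A for 4 of 5 members, against 63.5% of all genes. Together the 5 regions had 315.7 kb under sgNeg and 137.7 kb under sgNpm1A H3K27Ac peaks, a ratio of 0.436. For H3K4me3 the shares were 2.85% and 0.715% for RUNX1, 2.04% and 0% for RUNX2, 10.96% and 5.76% for RUNX3, 2.58% and 0% for CBFB, and 8.11% and 3.07% for RUNX1T1. Coverage was lower in sgNpm1A for 5 of 5 members, against 87.7% of all genes, and the ratio of the summed length was 0.321. Chromosome 8, which carries RUNX1T1, was densely covered in all 4 lists, with 17.0% and 19.0% of its length under sgNeg and sgNpm1A H3K27Ac peaks against 7.12% and 6.29% of the genome. Chromosome 1, which carries RUNX3, had 12.1% and 11.7%. These chromosome-wide levels stand beside the region values of both genes, and their part in them was not tested.

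**Figure D4:**
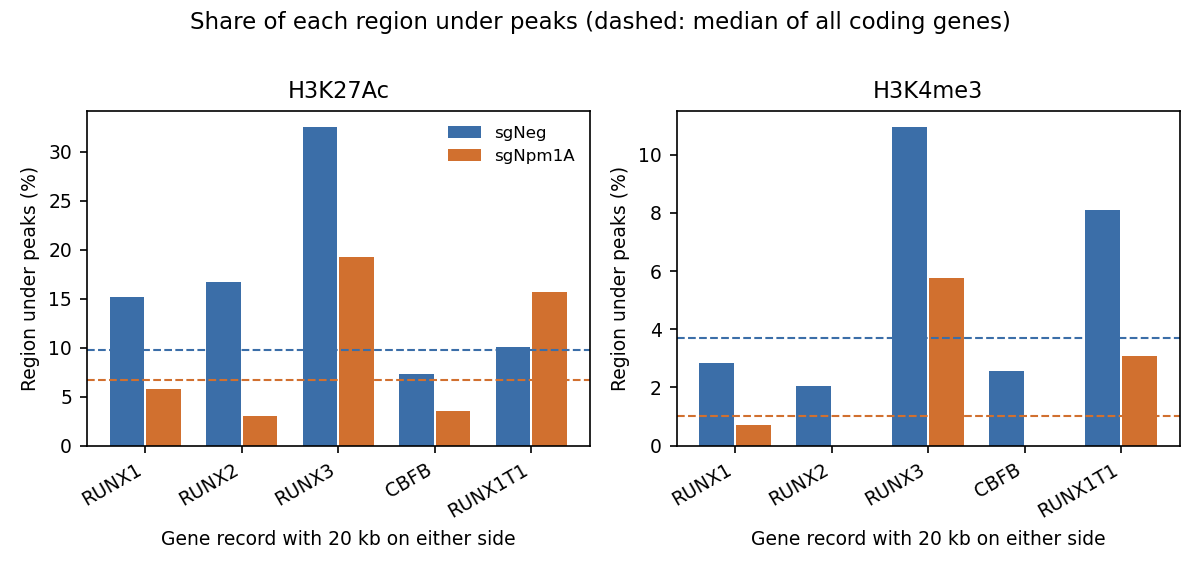
Percent of each member's region (gene record with 20 kb on either side) under H3K27Ac peaks (left) and H3K4me3 peaks (right), 1 bar per guide. Dashed lines are the medians over all coding genes in the list of the same color. H3K27Ac bars are lower for sgNpm1A in all members but RUNX1T1, where 10.1% compares with 15.7%, and RUNX3 has the highest bars of both marks.

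When H3K27Ac peaks closer than the distance commonly used to join super-enhancer parts were merged and ranked by length times fold enrichment, the best sgNeg region within 50 kb of RUNX1 ran from 36113936 to 36263746, with P2 near its upstream end, and was 767th of 49245. The RUNX2 region, from 45383081 to 45481756, was 547th, and the RUNX3 region, 272.1 kb long, was 327th. In sgNpm1A the best RUNX1 and RUNX2 regions were 3515th and 3239th of 52913, while the best RUNX3 region stayed near the top at 441st. These were not always the same stretches. The sgNpm1A RUNX1 region, from 36357083 to 36420590, lay on the P1 side, and the sgNpm1A RUNX2 region, from 45651323 to 45723288, began beyond the end of the gene record at 45632086. The best RUNX3 regions, 272.1 kb long in sgNeg and 250.8 kb in sgNpm1A, reached beyond both ends of the gene record of 65.6 kb. Their ranks are therefore not those of RUNX3 alone. The best regions near CBFB, 836th and 452nd, lay downstream beyond the gene in both lists. For RUNX1T1 the rank was 2381st in sgNeg and 486th in sgNpm1A. Both of its regions reached beyond the gene record of 148.3 kb, and the sgNpm1A region was 349.7 kb long. With joining within 5 kb, or with peaks of a q-value under 0.01 only, the best rank stayed nearer the top in sgNeg for RUNX1, RUNX2 and RUNX3 and in sgNpm1A for CBFB and RUNX1T1, as before, but the best regions were then other stretches, some of them outside the gene, such as the sgNeg regions of RUNX3 and RUNX1T1 at the stricter q-value. With the stricter q-value the sgNpm1A RUNX3 region was no longer near the top, at 3807th of 43554.

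The strongest sgNpm1A H3K27Ac peaks of the member regions were not at promoters. The strongest lay past the end of the RUNX2 P1 transcript, 132 kb past P2, from 45521204 to 45522104, with a fold enrichment of 6.42, rank 441 and percentile 99.86, where sgNeg had a peak from 45520645 to 45522052 at percentile 98.9. A peak upstream of RUNX1 P1, from 36814434 to 36815093, reached percentile 99.21 in sgNpm1A and 98.4 in sgNeg. The central 300 bases of the H3K27Ac overlap of both guides are shown for the RUNX2 site, since their sequence sets it apart from the promoters. They lie on GRCh37 at chr6:45521479-45521778 and are printed on the plus strand, with capitals as above.
RUNX2 past the P1 transcript: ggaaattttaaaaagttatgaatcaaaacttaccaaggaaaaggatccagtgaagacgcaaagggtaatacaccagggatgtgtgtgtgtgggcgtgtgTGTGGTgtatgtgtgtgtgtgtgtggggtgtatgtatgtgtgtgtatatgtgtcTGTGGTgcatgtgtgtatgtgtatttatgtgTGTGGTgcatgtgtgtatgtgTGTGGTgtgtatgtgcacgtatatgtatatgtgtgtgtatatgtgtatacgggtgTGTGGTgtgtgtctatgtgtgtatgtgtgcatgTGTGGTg

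The window consists largely of runs in which T and G alternate. Runs of at least 4 bases in which C and A, or T and G, alternate made up 53.3% of it. It held 42.7% G and C, against a median of 54.7% in the central windows of 14543 strong sgNeg peaks (percentile 95 and above, at least 300 bp wide). Its 6 TGTGGT matches lie among these T and G runs, and the word occurred in 17.3% of the strong-peak windows. The measure was then taken for the central 300 bases of every H3K27Ac peak, with 20% chosen after these values were seen as the level from which a peak is called repeat-rich. The RUNX2 peak and the peak upstream of RUNX1 P1 were both repeat-rich in sgNpm1A, at 61% and 34%. The sgNeg peaks at these RUNX2 and RUNX1 sites, both under percentile 99, were at 5.67% and 33.7%. The second was thus repeat-rich in both guides. At the RUNX2 site the wider sgNeg peak (1408 bp against 901 bp) also covered 100% of the window printed above. Its own central 300 bases lie mostly outside that window, so that 5.67% does not describe the stretch shared by both guides. Of the 4 member peaks at or above percentile 99 in sgNeg, at RUNX1 P2, RUNX2 P2, the CBFB promoter and far upstream of RUNX1, 0 were repeat-rich, at 1.33% to 5.33%. At or above percentile 95, 2 of 21 member peaks in sgNeg and 4 of 13 in sgNpm1A were repeat-rich. In the whole lists, 48.6% of the 3171 sgNpm1A peaks at or above percentile 99 were repeat-rich, and 8.08% of the 3278 in sgNeg. Over all peaks the shares were 2.32% and 2.37%. Only the central bases are read, so that runs elsewhere in a wide peak are missed. The part of peak width in these shares was not tested.

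**Figure D5:**
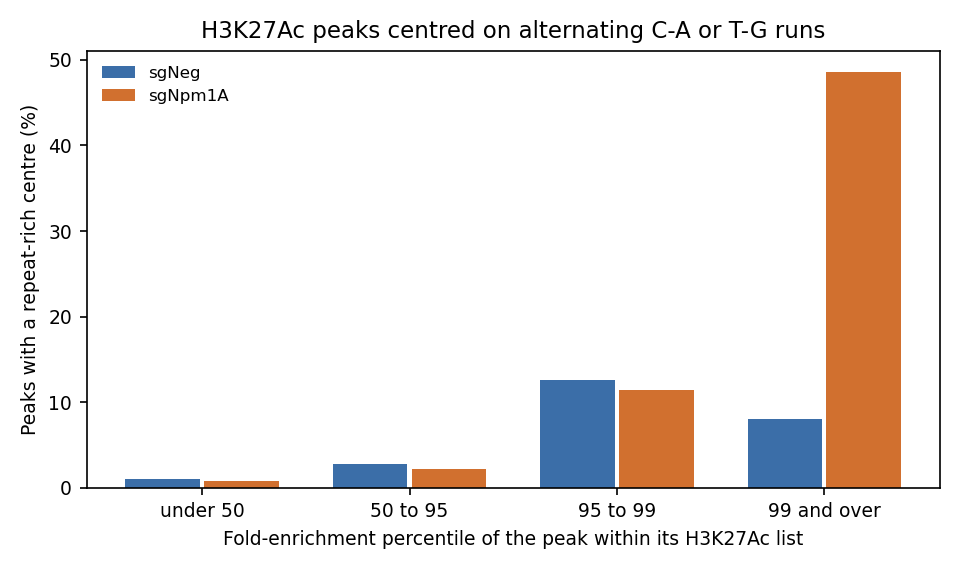
Percent of H3K27Ac peaks whose central 300 bases are repeat-rich (at least 20% in alternating C-A or T-G runs), by percentile of fold enrichment within the list, 1 bar per guide. From percentile 95 to 99 the bars are at 12.6% (sgNeg) and 11.4% (sgNpm1A), and above it the sgNpm1A bar is at 48.6% and the sgNeg bar at 8.08%.

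Genes that work with or downstream of the RUNX factors were read in the same way from 5 lists. The shares of all coding genes given above apply beside their counts, namely 79.1% (sgNeg) and 57% (sgNpm1A) with a H3K27Ac promoter peak, medians of 92.4 and 23.04, and 65.6% with a lower percentile in sgNpm1A. With 7 to 13 genes a list, nothing particular to a list is read from them. ETO family genes and other corepressors had a promoter peak in 13 of 13 genes in sgNeg H3K27Ac, with a median percentile of 98.6. The 95% Wilson interval, which covers counting error only, was 77.2% to 100%. In sgNpm1A 11 of 13 had a peak, with a median of 38.9. NCOR1, a nuclear corepressor, was at 99.90 and 24.8, and TLE4, a Groucho-type corepressor that binds the carboxyl end of RUNX proteins, at 99.68 and 38.9. HDAC3, a histone deacetylase, was the only member of that list with a higher percentile in sgNpm1A, 87.7 against 78.7. Of the coactivators and modifiers of RUNX proteins, 12 of 12 had a peak in sgNeg (median 99.4) and 10 of 12 in sgNpm1A (median 65.0), and all 12 were lower in sgNpm1A. EP300, an acetyltransferase that writes H3K27Ac, was at 99.98 and 74.2, and SMURF1, a ubiquitin ligase that acts on RUNX2, at 99.92 and 26.8.

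The factors that share sites with RUNX1 in blood stem and progenitor cells had a peak in 7 of 7 genes in both lists, with medians of 99.1 and 86.0. SPI1 (PU.1) was at 99.97 in sgNeg and 34.1 in sgNpm1A, and FLI1, an ETS factor, at 99.87 and 86.0. GATA2, a zinc finger factor of progenitors, went the other way, from 10.3 to 96.2. Among 11 myeloid target genes of RUNX1, 11 had a peak in sgNeg (median 95.3) and 9 in sgNpm1A (median 76.2). CEBPA and ELANE, which encode a granulocytic factor and neutrophil elastase, were at 99.80 and 99.76 in sgNeg and had no peak in sgNpm1A, and CSF2, the gene of the cytokine GM-CSF, was at 79.5 and 81.9. Bone and cartilage genes downstream of RUNX2 had a peak in 5 of 9 genes in each list, with medians of 53.1 and 39.2 and none at or above percentile 95. BGLAP (osteocalcin) was at 91.6 and 90.2 and COL1A1 at 83.5 and 58.5, while COL10A1 had a peak only in sgNpm1A, at 39.2. For H3K4me3 the number of genes with a sgNpm1A promoter peak was 1 of 13, 0 of 12, 0 of 7, 3 of 11 and 3 of 9 in these lists, against 11, 11, 6, 8 and 2 in sgNeg. Over all genes the shares were 9.49% in sgNpm1A and 68.3% in sgNeg. BGLAP had percentile 95.6 in sgNeg against 96.2 in sgNpm1A.

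Last, the genes nearest to each member by the 4 promoter percentiles, over 19097 genes matched by symbol, were named. For RUNX1 these were IST1, TASOR2 and FNDC3B, for RUNX2 HSPA8, RREB1 and CUL5, and for CBFB PHF10, MEMO1 and SHOC2. For RUNX3 they were RMDN2, ZNF572 and TBRG1. RUNX2 and CBFB were in crowded company, since 2638 and 2598 genes lay within a distance of 5 percentile points of them, while 313 genes lay that close to RUNX1 and 228 to RUNX3. RUNX1T1 had the fewest near genes, 46, led by MLYCD, MAPK15 and GDPD5. The distance is a description over 4 lists and says nothing of shared function.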

How the data were processed

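H3K27Ac and H3K4me3 were measured by ChIPmentation (Tn5 tagmentation of immunoprecipitated chromatin) in 1 library per guide RNA and mark. Groups were taken from sample titles, and 2 input samples are not analysed here. The submitters' processing notes name bcl2fastq 2.17, Trimmomatic 0.33, Bowtie 1.1.2, MACS2 2.1.0 and deepTools, and hg38. The deposited lists held peaks called separately per library, in the broad layout for H3K27Ac and the narrow layout for H3K4me3, with a fold enrichment (a ratio over expected cover), a −log10 p-value, a −log10 q-value and an integer score by the authors. The score was not used. The calling threshold, use of the inputs and any correction for Tn5 were not stated. Peaks on chromosome 1 reached 249218478 in the H3K27Ac lists, past its end in hg38, so GRCh37 was used for these, and H3K4me3 peaks on chromosome 17 reached 83201880, beyond that chromosome in hg19. No coordinate was converted.

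GENCODE version 44 mapped to GRCh37 gave every transcript start for H3K27Ac. For H3K4me3, starts of RefSeq gene records on GRCh38 and of the RefSeq promoter table were used. For H3K27Ac, P1 and P2 were told apart by start codons of coding transcripts. For H3K4me3, P1 was the first group of RefSeq starts in the direction of transcription and P2 the next, with starts within 1 kb grouped. A promoter was 1 kb on either side of a start, and an overlap was at least 1 bp. Percentiles and ranks were of fold enrichment within a list, with 0 for no peak. Joined H3K27Ac regions were ranked by length times fold. Python 3.11.15, pandas 2.3.3, numpy 2.4.6 and scipy 1.17.1 were used, and overlaps were tested on simulated data. Named genes were the members, the 2 highest genes of each list in sgNeg H3K27Ac, those higher in sgNpm1A, and the 3 nearest genes per member. The 5 gene lists (corepressors, coactivators and modifiers, progenitor factors, myeloid targets, bone and cartilage genes), the marker lists and the members were chosen with earlier results of these data known. Of the myeloid markers, 5 also stand in these gene lists, as does COL1A1 of the other markers. The fold enrichment is the authors' and no read totals were at hand, so the depth is unknown beyond the estimate given for H3K4me3. A further strong H3K27Ac peak of the member regions is not reported here.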

Additional observations from a re-analysis of the deposited data

How the results depend on the processing

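With 1 library per group, neither leaving out a library nor any spread was available. No paired analysis was possible because each group holds 1 library and no result comes from a test. The directions of covered length and of promoter percentiles held under every alternative run, but sizes depended on the threshold. The summed covered length in sgNpm1A relative to sgNeg (0.436 for H3K27Ac and 0.321 for H3K4me3) was 0.292 and 0.335 at a q-value under 0.01, 0.0465 and 0.0485 at a q-value under 1e-05, 0.0698 and 0.257 at a fold of at least 4, and 0.105 and 0.113 with the top 20000 peaks. It was 0.426 and 0.312 in the gene record alone, 0.468 and 0.413 with 50 kb flanks, and 0.4356 for H3K27Ac with RUNX1 taken from P1. The 3 sgNpm1A H3K27Ac promoter peaks became 0 at a q-value under 0.01, under 1e-05, with the top 20000 peaks, with 500 bp windows and with 50% of the window covered, where sgNeg H3K4me3 went from 6 to 2. The cause was not tested, but each of these settings admits fewer peaks. With 2 kb windows the leading sgNpm1A H3K27Ac peak moved to percentile 89.4 for RUNX1 and 84.8 for CBFB. Joining within 5 kb moved the median rank of the best joined region from 767 to 1367 in sgNeg and from 486 to 5746 in sgNpm1A, and a q-value under 0.01 moved the latter to 3807, so that the median was nearer the top in sgNpm1A with all peaks and in sgNeg under both alternatives. The share of listed genes with a sgNpm1A H3K27Ac promoter peak fell from 80.8% to 48.1% at a q-value under 0.01.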
